A study of Caenorhabditis elegans with 2 samples.

Results

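Of the 1940 CND-1 peaks on the nuclear chromosomes of C. elegans embryos, 202 (10.4%, 95% exact interval 9.09 to 11.9) had their summit within 100 bp of a tRNA gene. A peak was taken when its summit, the single base the authors' peak caller marked as the highest point, lay inside or within 100 bp of a gene that Ensembl release 115 annotates as tRNA on WBcel235, the assembly also called ce11. These summits reached 212 of the 612 nuclear tRNA genes (34.6%, interval 30.9 to 38.6), because 10 of the peaks lay within that distance of 2 tRNA genes and none lay near 3 or more. Every peak had a different nearest tRNA gene. Genes of other small RNAs carried a summit within the same distance less often in these lists, at 66 of 346 snoRNA genes (19.1%), 19 of 129 snRNA genes (14.7%) and 7 of 261 miRNA genes (2.68%).

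CND-1 belongs to the NeuroD family of transcription factors, which bind DNA through a basic helix-loop-helix (bHLH) domain, and is known for its part in the specification of embryonic neurons. Proteins of this family recognise E-boxes, short sites of the form CANNTG, usually as a dimer with another bHLH protein. Transfer RNA genes are short and are transcribed by RNA polymerase III from a promoter that lies inside the transcribed sequence. The complex TFIIIC recognises an A box near the start of the gene and a B box further in, and it then brings TFIIIB to the DNA just upstream of the start, where TFIIIB recruits the polymerase.

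Chromatin came from whole embryos of strain OP349, genotype unc-119(ed3) III; wgIs349, whose transgene makes CND-1 fused at its C-terminus to GFP and FLAG. Embryos of mixed stage and both sexes were obtained by bleaching, with a labelled age of 3 hours, and chromatin was sheared to 200 to 800 bp by sonication and precipitated with an antibody to GFP. There were 2 biological replicates in 1 group and no second condition, so no comparison between conditions could be tested, and values are given as counts with exact intervals or in each replicate. Whole embryos average over all their cell types, 1 transgenic line was used, and the control experiment named in the labels was not analysed here. Peak signal is the authors' value on a scale that is not given in the sources used here. In the list made from both replicates it was close to the sum of the 2 replicate signals (median ratio 1.00 over 1854 peaks, quartiles 0.987 and 1.02), and it is set side by side only within a list.

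Among the genes under strong peaks, 6 tRNA genes on IV, V and X are shown from 5′ to 3′ on the gene's own strand, because the gene body itself lies under the summit and holds the promoter boxes. Capitals mark the core of the B box, searched as GTTCNANNC, where N is any base. The first 5 belong to peaks among the 10 strongest, each of a different isotype, and the last belongs to a family of 24 identical genes. The sequences are those of the RefSeq assembly GCF_000002985.6.
C04A11.t1, tRNA-Leu, chrX:13665555-13665673, plus strand: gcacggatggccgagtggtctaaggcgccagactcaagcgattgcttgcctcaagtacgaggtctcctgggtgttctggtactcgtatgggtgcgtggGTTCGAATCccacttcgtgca
F57F5.t1, tRNA-Ile, chrV:12002176-12002260, plus strand: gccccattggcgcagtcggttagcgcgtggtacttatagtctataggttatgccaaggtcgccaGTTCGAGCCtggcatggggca
F29C4.t1, tRNA-Arg, chrIV:143982-144054, plus strand: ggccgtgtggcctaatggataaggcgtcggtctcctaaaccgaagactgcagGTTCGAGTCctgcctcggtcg
C06G1.t1, tRNA-His, chrX:16634830-16634901, minus strand: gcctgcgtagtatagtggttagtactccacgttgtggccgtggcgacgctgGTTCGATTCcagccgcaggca
R04D3.t2, tRNA-Val, chrX:13307034-13307106, plus strand: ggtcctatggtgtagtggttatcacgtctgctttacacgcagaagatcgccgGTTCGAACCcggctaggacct
H06A10.t1, tRNA-Pro, chrX:13511970-13512041, minus strand: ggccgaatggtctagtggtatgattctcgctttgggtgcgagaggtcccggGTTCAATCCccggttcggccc

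In C04A11.t1 the summit fell on base 13 of the gene and the B box core began at base 99, since the gene is 119 bp long. The tRNA-Ile gene F57F5.t1 had the summit on base 26 and the B box core at base 65. In F29C4.t1 the summit fell on base 11 and in C06G1.t1 on base 10, while the core began at base 53 and base 52. The summit of R04D3.t2 lay further in, on base 39, with the core at base 53. In all 5 the summit came before the B box.

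The strongest of the 202 peaks lay on C04A11.t1 (WBGene00000308), a gene for leucine tRNA with a sequence found once in the genome. Its signal was 404 in replicate 1 and 462 in replicate 2, and 866 in the list made from both, the 9th strongest nuclear peak. Second came the lysine tRNA gene W03G11.t1 on X, with signals of 332 and 340 in the replicates. The isoleucine tRNA gene F57F5.t1 on V followed with 309 and 315. On IV the strongest was the arginine tRNA gene F29C4.t1, which lies in an intron of the collagen gene col-99 on the opposite strand, with 299 and 286. Both values of C04A11.t1 lay above every replicate value of the other peaks at tRNA genes, and both replicates kept all 4 peaks among their 62 strongest regions.

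Next in order were the histidine tRNA gene C06G1.t1 (285 in replicate 1 and 281 in replicate 2) and the cysteine tRNA gene C37A2.t1 (265 and 292), the strongest on chromosome I, in an intron of the cyclin E gene cye-1. The glycine tRNA gene F17H10.t1, inside the sorting nexin gene snx-17, had 303 and 238. The glutamate tRNA gene C28G1.t1 had 274 and 264, the asparagine tRNA gene F41D9.t3 had 248 and 285, and the valine tRNA gene R04D3.t2 had 237 and 278. Which replicate was higher varied from gene to gene. Of the 10 strongest peaks 7 lay on X, and the strongest on II and III were the leucine tRNA gene C04A2.t1 (237 and 273) and sup-5 (208 and 267). The gene sup-5 encodes a tryptophan tRNA and is known from mutations that suppress amber stop codons.

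At the low end, the 3 weakest peaks lay at T10B10.t2 (53 and 49 in replicates 1 and 2), R11B5.t1 (52 and 58) and C12C8.t2 (54 and 48), for glycine, threonine and glycine tRNA. All 3 summits lay upstream of the gene. Signal in the list from both replicates therefore ran from 105 at T10B10.t2 to 866 at C04A11.t1, with a median of 221 and quartiles of 146 and 311.

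Peaks at tRNA genes were stronger than most of the list. Their median of 221 compares with 146 (quartiles 119 and 201) for the 1738 other nuclear peaks and 150 for the 680 other peaks in promoters, here 500 bp upstream to 100 bp downstream of the start of a protein-coding transcript. Peaks at snoRNA genes were higher still, with a median of 385 (n = 65), and those at snRNA genes had 181 (n = 22). Among the 485 strongest peaks, the top 25% of the list, were 106 of the 202 peaks at tRNA genes (52.5%, interval 45.3 to 59.5) and 379 of the 1738 others (21.8%, interval 19.9 to 23.8). The 485 weakest held 18 (8.91%). Of the 202 peaks, 24 (11.9%) were among the 100 strongest, against 5.15% of all nuclear peaks. Among the 20 strongest were 2 (0.990%), close to the 1.03% of all nuclear peaks. The authors' −log10 q-value stood at its maximum of 3.46 in 184 of the 202 peaks (91.1%) and in 1435 of all 1940 (74.0%).

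**Figure D1:**
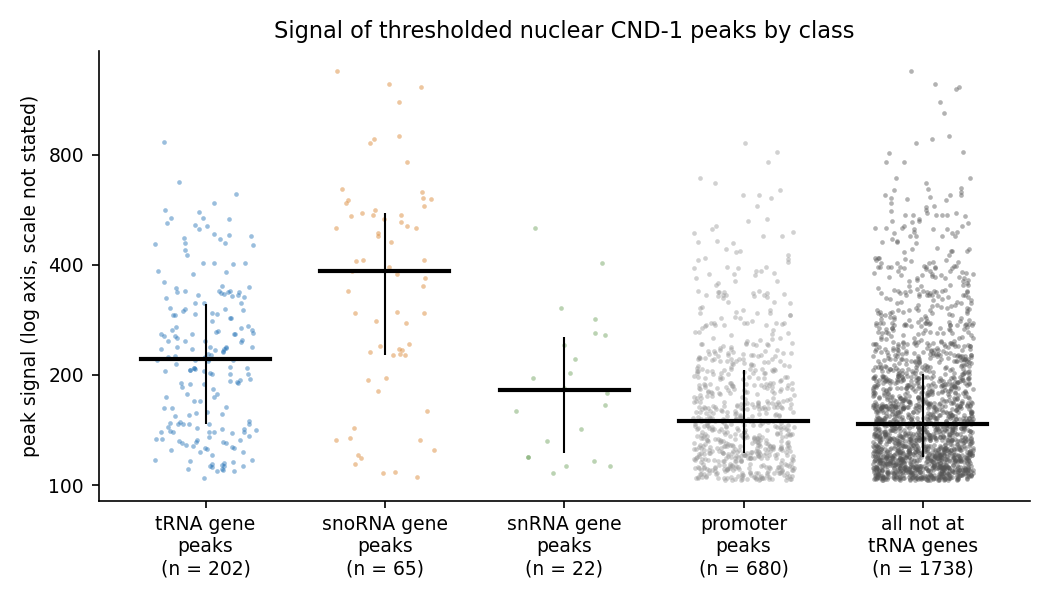
Signal of each thresholded nuclear peak (log axis, the authors' own scale) at tRNA, snoRNA and snRNA genes, in promoters and in all peaks not at tRNA genes; thick lines are medians and thin lines quartiles. The median at tRNA genes, 221, lies between 385 at snoRNA genes and 150 in promoters, and the promoter peaks are part of the last class.

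The same peaks were seen in both replicates in most cases. A summit within 100 bp stood among the 1964 strongest regions of each replicate, as many as the authors' final list holds, for 167 of the 202 peaks (82.7%, interval 76.7 to 87.6). Over all nuclear peaks this share was 67.3%, and over the 1738 others 65.5% (interval 63.2 to 67.8). Among the others it was 56 of 65 (86.2%) at snoRNA genes and 14 of 22 (63.6%) at snRNA genes. Taken singly, replicate 1 held 183 (90.6%) and replicate 2 held 184 (91.1%) of the 202, against 81.0% and 83.4% of all nuclear peaks. The final list was chosen from the replicate lists, so that some of this support is built in.

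Signals of the 2 replicates went together across the 197 peaks at tRNA genes with a summit in both full lists of 30000 regions (Spearman's rho 0.862, Pearson's r of log2 signals 0.853). Across the 1657 other peaks rho was 0.672 and r 0.775. Among these, rho was 0.957 for the 65 at snoRNA genes and 0.695 for 20 at snRNA genes, so high agreement was not particular to tRNA genes. These coefficients run over peaks that share the same 2 libraries and are given as a description. The median log2 ratio of replicate 1 to replicate 2 was −0.03 (quartiles −0.25 and 0.16) at tRNA genes and −0.13 (quartiles −0.38 and 0.14) elsewhere.

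Among the 35 peaks missing from the strongest regions of a replicate, the strongest was at the threonine tRNA gene R01H5.t1. It ranked 98th in the list from both replicates with a signal of 425, and had 214 in replicate 2, but the nearest summit of replicate 1 lay 1949 bp away. The next were T22A3.t1 for glycine tRNA (97.7 in replicate 1 and 50.1 in replicate 2) and F10C1.t2 for leucine tRNA (49.8 and 59.4). Apart from R01H5.t1, all of these ranked 988th or lower. For R01H5.t1 the signal of 425 lay well above the 214 of replicate 2, while such signals were mostly close to the sum of both replicates. The missing summit therefore does not show that replicate 1 had no signal there, and why it is missing was not tested.

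**Figure D2:**
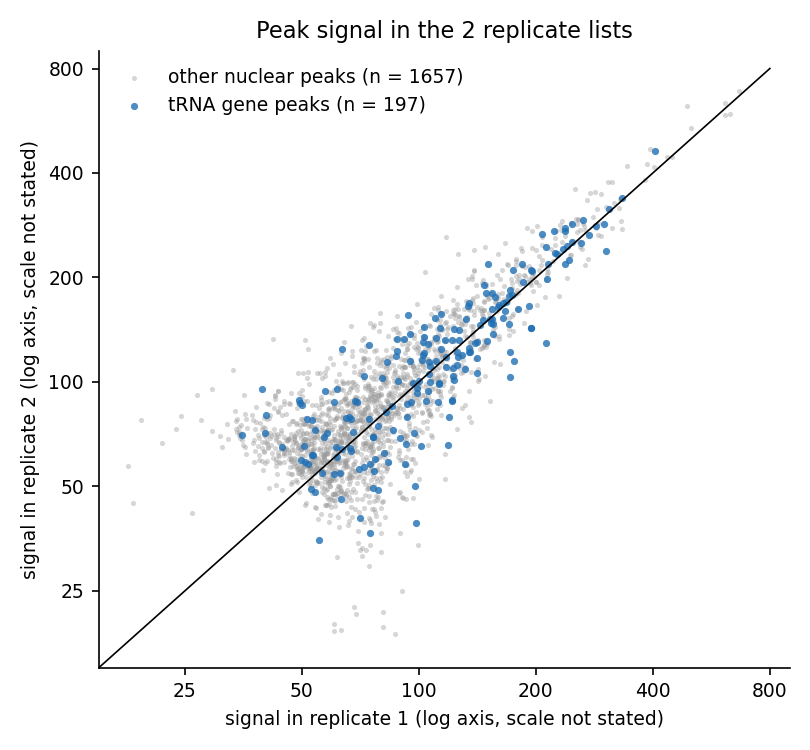
Signal of each nuclear peak in replicate 1 and replicate 2 (both log axes, the authors' own scale), for 197 peaks at tRNA genes and 1657 other peaks with a summit within 100 bp in both lists; the line marks equal values. Peaks at tRNA genes follow the line, with a Spearman's rho of 0.862, and spread most at low signal.

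Summits lay on the gene itself or just in front of it. Of the 202 summits, 132 (65.3%, interval 58.3 to 71.9) fell inside the tRNA gene, 58 (28.7%, interval 22.6 to 35.5) upstream and 12 (5.94%) downstream. Measured from the first base along the gene's strand, the median summit lay 14.5 bp in, with quartiles at −4.75 and 41.75 bp and a range of −67 to 131 bp. The fullest 10 bp bin ran from 10 to 19 bp and held 39 summits. Between 20 and 29 bp there were 9 summits and between 30 and 39 bp 21. In front of the gene the fullest bin was −30 to −21 bp with 22 summits, and the 3 bins between it and the one at 10 bp held 17, 12 and 19.

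Set against the promoter boxes, more summits lay nearer the start of the A box than that of the B box. An A box could be read near the start of 565 of the 612 tRNA genes and a B box core in 587. In the peaks' genes the A box began at base 8 and the B box core at base 52 in the median. For the 187 peaks whose gene had both, the summit was nearer the start of the A box in 116 (62.0%, interval 54.7 to 69.0). By this measure every summit in front of the gene counts as nearer the A box. The summit fell on the 11 bases of the A box in 43 of 195 (22.1%) and before the A box in 64 (32.8%). The summit came before the B box core in 156 of 194 (80.4%, interval 74.1 to 85.8), at a median of 38 bp in front of it. The core was taken at its first match anywhere in the gene, and in sup-5 that match began at base 25. Counts of the core may thus hold some matches that are not the B box.

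Each replicate gave a like picture. The strongest regions of replicate 1 held 203 at tRNA genes, with a median of 15 bp into the gene, 135 inside and 51 upstream. Replicate 2 held 192, with a median of 11 bp, 115 inside and 59 upstream. Position also varied with signal. Of the stronger 101 of the 202 peaks, 73 (72.3%, interval 62.5 to 80.7) had the summit inside the gene and 21 upstream, against 59 (58.4%, interval 48.2 to 68.1) inside and 37 upstream for the weaker 101. The intervals overlap. Genes whose sequence occurs once had the summit inside in 18 of 28 cases (64.3%) and those with identical copies in 114 of 174 (65.5%).

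**Figure D3:**
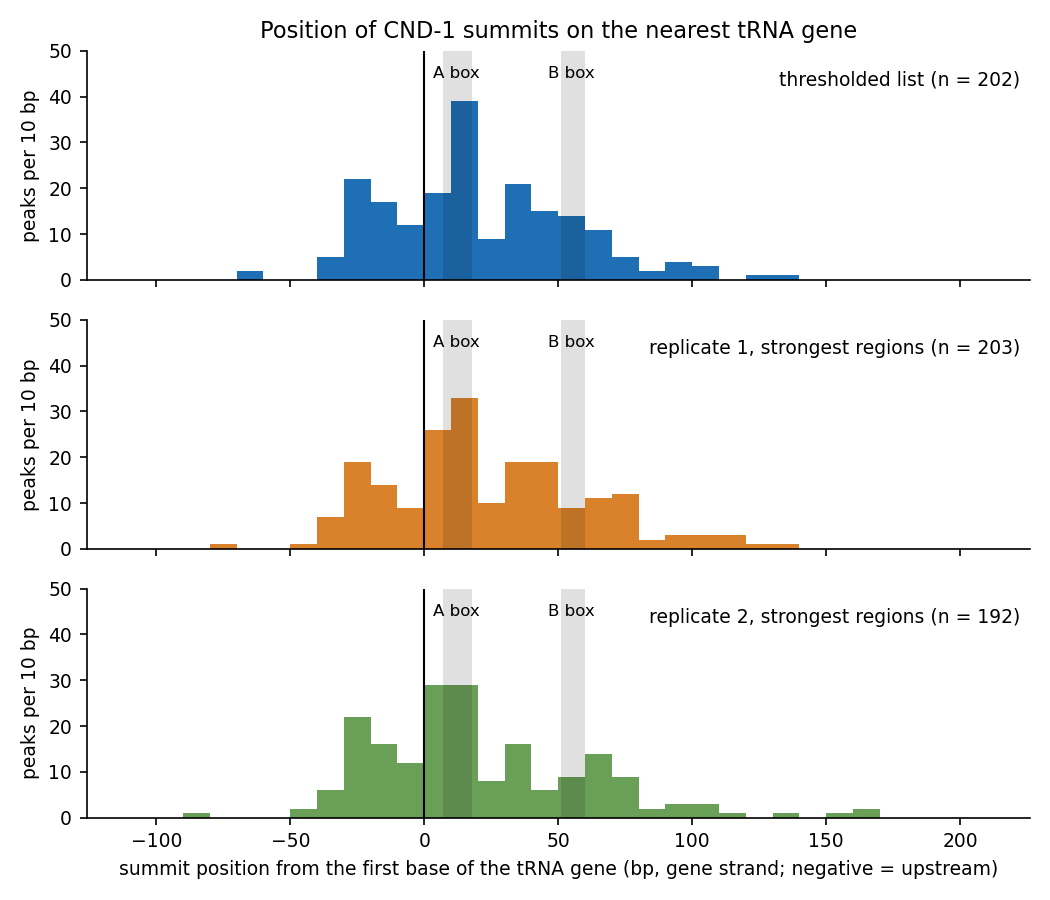
Number of summits per 10 bp (vertical axis) by position from the first base of the nearest tRNA gene (bp, along the gene's strand), in the final list (202 peaks) and in the strongest regions of replicate 1 (203) and replicate 2 (192); grey bands mark the median places of the A box and the B box core. The fullest bin of the final list, 10 to 19 bp with 39 summits, lies over the A box.

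The limit of 100 bp cut through a sparse stretch. Just inside it were C12C8.t2 with a summit 67 bp away, K07C10.t1 with 61 bp and T04D3.t2 with 60 bp, with signals of 109, 112 and 201. Just outside were F10C1.t1 at 108 bp (signal 185), C35E7.t1 at 113 bp (126) and Y7A9D.t1 at 114 bp (158).

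Taken over all forms together, E-boxes were no more frequent at these summits than beside them. All 10 forms of CANNTG were searched on both strands in the 100 bp around each summit, and in 100 bp centred 300 bp to its left. An E-box of any form was present in 66 of the 202 windows (32.7%, interval 26.3 to 39.6) and in 70 of their flanks (34.7%, interval 28.1 to 41.7). Over all nuclear peaks 49.4% of the summit windows held one. In the 1738 other peaks it was 892 (51.3%, interval 48.9 to 53.7) at the summit and 29.6% in the flank. Among these, peaks at snRNA genes also showed no rise, with 6 of 22 (27.3%) at the summit and in the flank. Peaks at snoRNA genes had 44.6% and 21.5%. Outside the bodies of tRNA genes, 30 of the 202 windows (14.9%, interval 10.3 to 20.5) held one, in windows where the gene takes up much of the sequence.

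The form CAGATG showed the largest gap. It stood in 9 of the 202 windows (4.46%, interval 2.06 to 8.29), against 17.4% over all nuclear peaks and 329 of the 1738 others (18.9%, interval 17.1 to 20.9). Among the others it was also low at snRNA genes (0 of 22) and snoRNA genes (5 of 65, 7.69%), beside 12.4% in promoters. In the flanks CAGATG was present in 1.98% for peaks at tRNA genes and 3.91% for the others. CAGCTG was present in 2 windows (0.990%) against 7.54% of the others. CACATG went the other way, with 25 windows (12.4%, interval 8.17 to 17.7) against 4.83% (interval 3.87 to 5.95), and CAACTG had 19 (9.41%) against 6.44%, with overlapping intervals.

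Both CACATG and CAACTG occur in the tRNA genes themselves, in 43 and 50 of the 612 gene bodies. Bodies of tRNA genes with a peak held an E-box in 49 of 212 cases (23.1%) and bodies without a peak in 100 of 400 (25%). In the 100 bp upstream of the gene the shares were 36.8% and 35.3%, and in the 100 bp downstream 30.2% and 30.5%. Peaks with an E-box of any form had a median signal of 230 (n = 66) and those without one 219 (n = 136). At the other peaks the medians were 157 (n = 892) and 139 (n = 846).

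The B box core was present in 110 of the 202 summit windows (54.5%, interval 47.3 to 61.5), against 9.79% over all nuclear peaks. In the other peaks it was 80 of 1738 (4.60%), and in the flanks 6.93% for peaks at tRNA genes and 3.34% for the others. Since nearly every tRNA gene holds this core, its share here follows from where the window ends, and it says only that the windows lie on tRNA genes. Its letters can share bases with an E-box at the edge but cannot contain one. GC content of the summit window was alike, with a median of 51% at tRNA genes and 50% elsewhere.

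**Figure D4:**
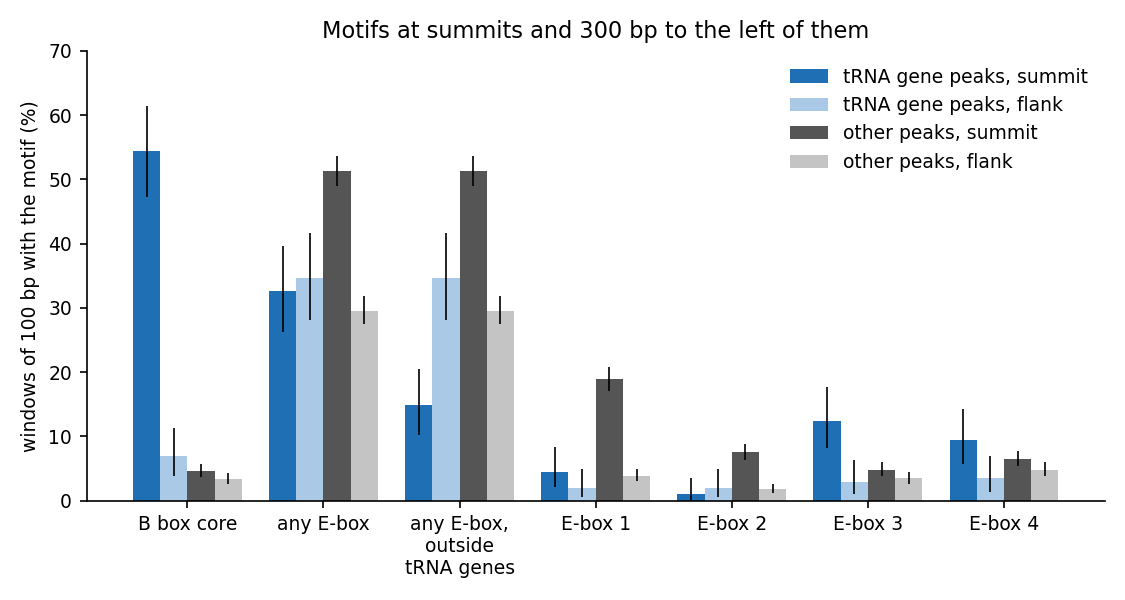
Share of 100 bp windows (%) with each motif at the summit and centred 300 bp to its left, for 202 peaks at tRNA genes and 1738 other nuclear peaks; error bars are 95% exact intervals, and E-box 1 is CAGATG, E-box 2 is CAGCTG, E-box 3 is CACATG and E-box 4 is CAACTG. At tRNA genes the shares with any E-box are alike at summit and flank (32.7% and 34.7%), while the others rise from 29.6% in the flank to 51.3% at the summit.

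Only 3 of the 9 windows with CAGATG had it outside the tRNA gene. The strongest of the 9 peaks were at C37A2.t1, Y39B6A.t9 for phenylalanine tRNA (167 in replicate 1 and 170 in replicate 2), K06A4.t1 for alanine tRNA (160 and 167), T18D3.t1 for alanine tRNA (106 and 114) and F09B9.t2 for arginine tRNA (87.6 and 119). The 9 had a median signal of 207, and the 193 without CAGATG 222.

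The summit windows of K06A4.t1 and F09B9.t2 are shown from 5′ to 3′ on the gene's strand, as the 2 strongest of the 3 with this site beside the gene. Capitals mark CAGATG or its reverse complement.
K06A4.t1, tRNA-Ala, chrV:9503487-9503586, plus strand: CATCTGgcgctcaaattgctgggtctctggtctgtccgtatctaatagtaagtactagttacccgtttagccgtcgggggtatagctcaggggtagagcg
F09B9.t2, tRNA-Arg, chrX:10148669-10148768, minus strand: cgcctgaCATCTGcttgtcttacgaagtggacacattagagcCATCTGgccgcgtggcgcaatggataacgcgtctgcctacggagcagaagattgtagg

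In K06A4.t1 the site stands in front of the gene. F09B9.t2 has 2 sites, the first in front of the gene and the second ending on the gene's first base. The third window was that of F52H2.t1 for aspartate tRNA, where the site lay past the gene's end and the signal was 42.0 in replicate 1 and 77.0 in replicate 2.

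Genes for every named isotype had peaks. The RefSeq annotation names an isotype, the amino acid a tRNA carries, for all but 5 of the 612 genes, and each of the 21 isotypes, selenocysteine included, had at least 1 gene with a peak. The 5 genes without a named isotype had none. Shares of genes with a peak ran from 25% for histidine (5 of 20) and tryptophan (3 of 12) to 46.2% for cysteine (6 of 13), beside the 1 selenocysteine gene K11H12.t1, which had a weak peak (55.3 in replicate 1 and 34.9 in replicate 2). The exact intervals of all isotypes included the overall 34.6% and overlapped each other. The largest isotypes lay close to it, with glycine at 21 of 55 (38.2%), lysine at 17 of 46 (37.0%), arginine at 14 of 44 (31.8%) and proline at 13 of 42 (31.0%).

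Median signal by isotype ran from 140 for aspartate (n = 11) and 143 for glutamine (n = 8) to 302 for methionine (n = 7) and 336 for isoleucine (n = 9), leaving out selenocysteine with 1 peak. Strongest peaks of isotypes not yet named were F38G1.t2 for aspartate (261 and 252 in replicates 1 and 2), F15G9.t1 for alanine (223 and 272), C02B4.t2 for tyrosine (240 and 246), E03E2.t1 for serine (238 and 218), C16B8.t2 for proline (227 and 234), T15B12.t1 for methionine (171 and 177) and R04A9.t1 for glutamine (154 and 163). Aspartate, with the lowest median among these isotypes, held signals from 115 to 513, and its F38G1.t2 was the 56th strongest nuclear peak.

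An anticodon, the 3 bases that read the codon, could be read from the folded loop in 582 genes. They made 46 groups, and 43 had at least 1 gene with a peak. The 3 without were small, namely arginine CCG (0 of 2) and GCG (0 of 1) and glycine CCC (0 of 3). Among the larger groups, glutamate TTC had 10 of 17 genes with a peak (58.8%, interval 32.9 to 81.6) and glutamate CTC 6 of 24 (25%, interval 9.77 to 46.7). Proline TGG had 7 of 31 (22.6%) and serine AGA 2 of 15 (13.3%). The intervals of the 2 glutamate groups overlap.

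Identical genes differed in whether they had a peak. The 612 genes comprise 200 distinct sequences, and 20 families hold 10 or more identical copies, 317 genes in all. Every one of these 20 families had copies with a peak and copies without. Over all tRNA genes 34.6% had a peak, and the exact interval of each of the 20 families included this share. At that share most families of 10 or more genes would hold both kinds. The largest, of 29 glycine tRNA genes, had 14 with a peak (48.3%, interval 29.4 to 67.5), and 11 peaks closest to its copies had signals from 105 to 382. In the family of 25 lysine tRNA genes 11 had a peak, with signals from 112 to 673. Proline tRNA had 6 of 24, aspartate tRNA 9 of 21 and isoleucine tRNA 6 of 19. Genes in families of more than 10 had a peak in 115 of 287 cases (40.1%, interval 34.4 to 46.0). Those with 6 to 10 copies had one in 35 of 100 (35%, interval 25.7 to 45.2) and those with 2 to 5 copies in 32 of 82 (39.0%). Genes of unique sequence had one in 30 of 143 (21.0%, interval 14.6 to 28.6).

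Reads from identical genes can be placed only by their flanks, and how the authors treated reads with several matches is not given in the sources used here. In the 300 bp around a gene, a median of 81.5% of 36-mers occurred once in the genome for genes with a peak and 81.9% for genes without one. Of the 15 genes where under 50% did, none had a peak (interval 0 to 21.8%). Where 50 to 90% did, 196 of 516 had one (37.98%, interval 33.8 to 42.3), and where over 90% did, 16 of 81 (19.8%, interval 11.7 to 30.1). Within the gene body, 183 of the 212 genes with a peak (86.3%) and 290 of the 400 without (72.5%) had no 36-mer found once. The part of read placement in these shares was not tested.

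**Figure D5:**
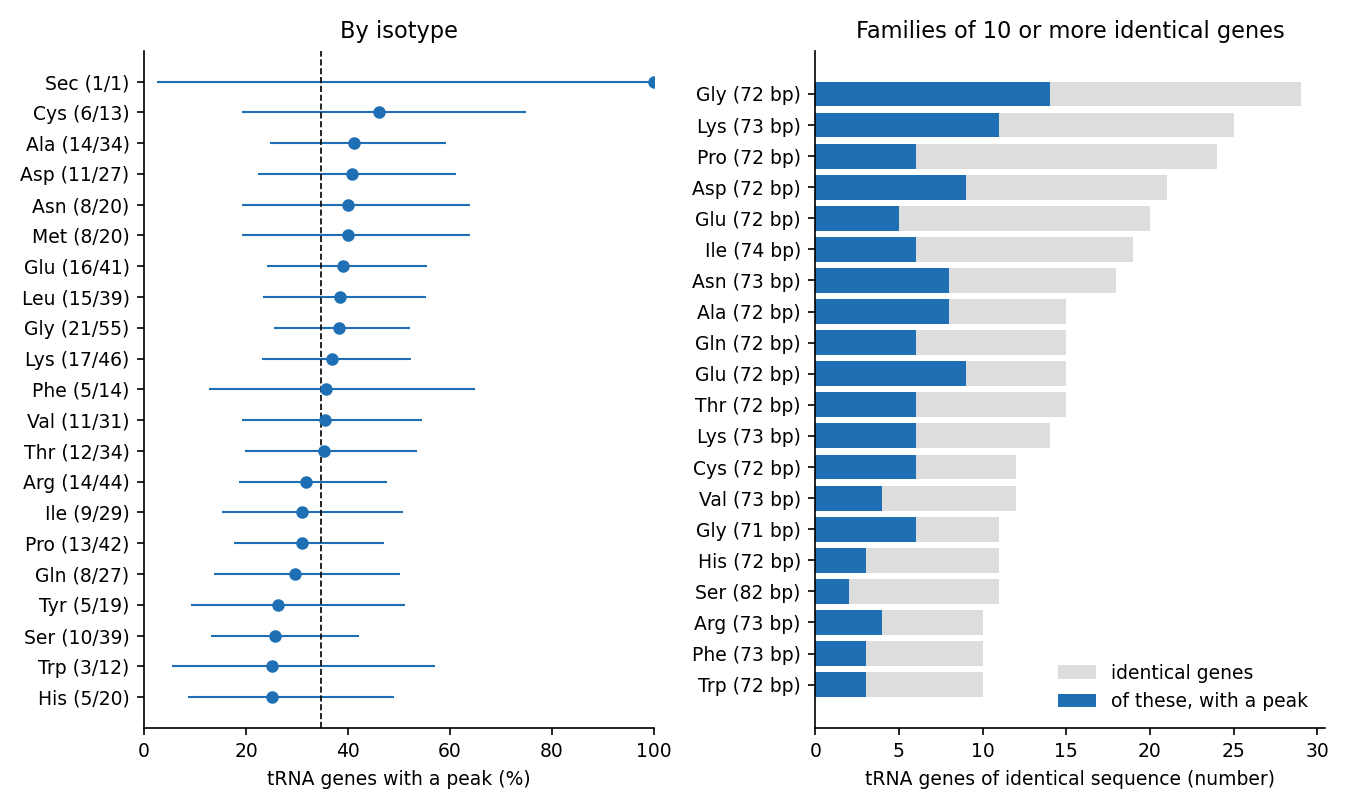
Left, share of tRNA genes with a peak (%) by isotype with 95% exact intervals, the dashed line marking 34.6% over all genes. Right, number of genes in each of the 20 families of 10 or more identical tRNA genes (grey) and of those with a peak (blue), where every family has both kinds.

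Peaks at tRNA genes were spread over the chromosomes much as tRNA genes are. Since these peaks were picked by their distance to a tRNA gene, part of this is built in. X carried 89 of the 202 peaks (44.1%, interval 37.1 to 51.2), while it holds 45.1% of the tRNA genes and 17.7% of nuclear sequence. Of the tRNA genes on X, 93 of 276 (33.7%, interval 28.1 to 39.6) had a peak, and on the autosomes 119 of 336 (35.4%, interval 30.3 to 40.8). Shares on single autosomes ran from 26.9% on V (21 of 78) to 40.6% on III (26 of 64), with overlapping intervals. The other nuclear peaks had 22.2% on X. Without the peaks at tRNA genes, the density of peaks on X over that on the autosomes was 1.33, and with them 1.51.

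Signal and E-boxes of the peaks at tRNA genes are given for X and the autosomes as a description, since no test was run. On X the median signal was 255.7 (quartiles 185 and 340, n = 89) against 201 (quartiles 140 and 262, n = 113). The 485 strongest peaks of the list took in 62.9% (interval 52.0 to 72.9) of those on X and 44.2% (interval 34.9 to 53.9) of those on the autosomes, with intervals that overlap, beside 20.2% and 22.3% of the other peaks. The other peaks had medians of 145 on X and between 141 and 155 on the single autosomes. An E-box of any form was present in 39 of 89 windows on X (43.8%, interval 33.3 to 54.7) and in 27 of 113 on the autosomes (23.9%, interval 16.4 to 32.8), while the other peaks had 51.3% on both. In the flanks of the peaks at tRNA genes the shares were 37.1% on X and 32.7% on the autosomes. CAGATG was present in 6 of 89 windows on X (6.74%, interval 2.51 to 14.1) and in 3 of 113 on the autosomes (2.65%, interval 0.551 to 7.56), with overlapping intervals.

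Shares of tRNA genes with a peak were alike in introns and outside genes and on both strands, and differed with the distance to the next tRNA gene. Genes in introns had a peak in 100 of 283 cases (35.3%), and genes outside protein-coding genes in 106 of 319 (33.2%). Genes on the plus strand had one in 107 of 298 cases (35.9%) and those on the minus strand in 105 of 314 (33.4%). With another tRNA gene within 1000 bp, 55 of 236 (23.3%, interval 18.1 to 29.2) had a peak. Without one it was 157 of 376 (41.8%, interval 36.7 to 46.9). Of the 10 peaks within reach of 2 tRNA genes, the strongest lay at the pairs F15G9.t1 and F15G9.t2 and C16B8.t2 and C16B8.t3, both on X.

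The 400 tRNA genes without a peak were mostly empty in the longer lists too. A region of the list of 30000 made from both replicates had its summit within 100 bp of 138 of them (34.5%), with a median rank of 6380 and a best rank of 2037. A total of 262 tRNA genes had no summit in that list at all. Only 3 genes without a peak had a summit among the strongest regions of both replicates. Down that list the share of nuclear regions at tRNA genes fell from 22.3% (interval 18.6 to 26.3) in the first 500 regions to 7.60% in the next 500, 2.25% between ranks 2001 and 4000, and 0.291% beyond rank 8000.

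Few of these peaks lay in promoters of protein-coding genes. This was the case for 30 of the 202 (14.9%, interval 10.3 to 20.5) against 680 of the 1738 others (39.1%, interval 36.8 to 41.5). Among the others it was also low at snRNA genes (5 of 22, 22.7%, interval 7.82 to 45.4) and snoRNA genes (16 of 65, 24.6%, interval 14.8 to 36.9). Both intervals overlap that of the peaks at tRNA genes, and the share of all tRNA genes that lie in promoters is not given here. Summits of the 202 peaks lay at a median of 1319 bp from the nearest transcript start, and those of the 1738 others at 750.5 bp. From 1500 bp upstream to 500 bp downstream of a start, 1474 of 19973 protein-coding genes (7.38%) had a summit of any nuclear peak, and for 93 of the 1474 the only such summit belonged to a peak at a tRNA gene.

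Few genes of the RNA polymerase III machinery or of those that charge tRNAs had a summit, in lists too small to tell them from all genes. Of 11 genes for subunits of RNA polymerase III, 1 had a summit in that window (9.09%, interval 0.230 to 41.3) against the 7.38% of all genes. It was rpac-19, for a subunit shared with RNA polymerase I, with a signal of 112 at 108 bp upstream. None of 13 genes for RNA polymerase III initiation factors and the regulator mafr-1 had one (interval 0 to 24.7%). These 13 include the snpc genes, so they are not a list of factors for tRNA genes alone. Of 20 cytosolic aminoacyl-tRNA synthetases, the enzymes that load tRNAs, 1 had a summit (5%, interval 0.127 to 24.9). It was the lysyl-tRNA synthetase gene kars-1, with a signal of 126 at 289 bp upstream. No peak near a tRNA gene was involved in either.

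Other RNAs made by RNA polymerase III differed from each other. The RNase P RNA gene rpr-1, whose product cuts the 5′ ends of tRNA precursors, carried the 41st strongest nuclear peak (signal 547) with the summit inside the gene. The RNase MRP RNA gene mrpr-1 had a weak one 3 bp away (signal 122). The Y RNA gene yrn-1 had none in the final list, only a region of signal 36.02 that ranked 24231st in the longer list. No 5S rRNA gene had a summit within 100 bp in the final list. In the longer list the 5S gene rrn-4.15 had one inside the gene (signal 43.4, rank 16522). Most of the 5S genes lie close together on V, and read placement there was not examined.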

How the data were processed

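Anti-GFP ChIP-seq of CND-1::GFP embryos was deposited as 4 peak lists on ce11. The thresholded list holds 1964 peaks, of which 24 mitochondrial ones were left out here, and the lists of each of the 2 replicates and of both pooled hold 30000 regions each. For each region the authors deposited a signal value and a −log10 q-value with no file headers. No peak caller, aligner or IDR cut-off is given in the sources used here. Depth is unknown from peak lists, so exact Clopper-Pearson 95% intervals cover the counting of peaks or genes only.

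Genes came from Ensembl release 115 (WBcel235, the same assembly as ce11, inside whose chromosomes every nuclear region ended), and isotypes, symbols and sequence from RefSeq GCF_000002985.6, which matched all 612 tRNA genes. Anticodons were read from a loop of 7 bases closed by a stem of 5 pairs, kept where they read as the isotype. Ranks in the thresholded list count nuclear peaks, and those in the longer lists all regions. A replicate's signal for a peak is that of its strongest region with a summit within 100 bp, otherwise of the closest. The A box was searched by its usual consensus with a start within the first 15 bases.

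With 1 group no test was run. Members, lists and tests were chosen with earlier results of these data known. Named genes followed a rule: the 10 strongest and 3 weakest peaks, the strongest of each chromosome and isotype, up to 5 with CAGATG, 3 on each side of the distance limit, up to 3 missing from a replicate's strongest regions; genes beside them were chosen after their values were seen. Of the listed genes of the RNA polymerase III machinery and synthetases, 1 each in the last 2 lists matched no symbol. Scripts used Python 3.11.15, numpy 2.4.6, pandas 2.3.3 and scipy 1.17.1, and were tested on simulated data with planted summits and motifs. Alternatives were other distances, peak sets, windows and single replicates.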

Additional observations from a re-analysis of the deposited data

How the results depend on the processing

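Of 92 values recomputed under alternatives, 78 stayed within the exact interval of the value reported, or within 1.5 times it for counts. Limits of 50 or 200 bp, overlap of the whole peak and merged peaks gave between 198 and 209 peaks. The list cut at its median signal, which leaves fewer peaks, gave 24.5% of tRNA genes with a peak, 38.9% of the peaks in the top 25% of the shortened list and 99.3% shared by both replicates. Only the 143 tRNA genes of unique sequence left 29 peaks, with 20.98% of the genes and 34.5% of the peaks on X. Windows of 200 bp held the B box core in 94.6% and any E-box in 55.9%, windows of 50 bp in 29.7% and 17.8%, and 1 mismatch in the core gave 76.7%. Shares for flanks and other peaks are given only for 100 bp windows, so these values cannot be set against them. From single replicates the core was present in 45.8% to 54.2%, and the number of peaks was 192 to 203. With 50-mers the shares found once were 86.1% and 86.5%. Support by both replicates has no value from a single one. No paired analysis was possible because there is 1 group. Depth of the libraries is not known here, and neither the labelled control nor read placement was examined.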

Other observations

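The B box core also stood at peaks that were not at tRNA genes. Of the 80 other nuclear peaks with it in the 100 bp around the summit, 25 lay within 100 bp of a snoRNA gene, none near a snRNA gene, and 55 near neither. It was present in 25 of the 65 peaks at snoRNA genes (38.5%, exact interval 26.7 to 51.4), and in their flanks in 1 of 65. All 25 of these ranked among the 485 strongest nuclear peaks, with a median signal of 489 (quartiles 350 and 631), against 279 (quartiles 141 and 513) for the 40 peaks at snoRNA genes without the core, of which 25 ranked there. At tRNA genes the windows with and without the core had medians of 221 (n = 110) and 222 (n = 92). Of the 55 peaks near neither kind of gene 13 (23.6%, interval 13.2 to 37.0) ranked among the 485 strongest. That is near the 19.3% of the 1596 such peaks without the core and the 25% of all nuclear peaks. No test was run on these values, and the snoRNA genes were looked at after the result for all other peaks was seen.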
